A study of Brassica carinata x Brassica rapa with 9 samples.

Results

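The 200 genes described here were those with the strongest preference for the ovule in a synthetic Brassica allohexaploid, out of 100804 genes in the deposited expression table. They were chosen by their values. Genes with a mean of at least 10 FPKM (fragments per kilobase of gene, scaled to the reads of the library) over the 3 Ovule libraries numbered 22446, and 22428 of these were also above 0 FPKM in at least 1 Leaf or Anther library. Those 22428 genes were ranked by the ratio of the Ovule mean to the larger of the Leaf and Anther means, with 0.1 FPKM added to each, and the top 200 were taken as members. The height of the members in Ovule is therefore how they were found, and their differences between Ovule and the other tissues are given as a description without a test.

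RNA-Seq was performed on 3 tissues of this allohexaploid, with 3 libraries each and 9 in all, and the study named the 3 libraries of a tissue biological replicates. Ovule was ovules collected from meiosis to the mature embryo sac, Anther was anthers collected from meiosis to mature pollen, and Leaf was young leaves taken as the vegetative control. All tissues came from untreated greenhouse plants of 1 genotype, AABBCC, made by crossing B. carinata (BBCC) with B. rapa (AA) and doubling the chromosomes, and the sources differ on which species was the female parent. Anthers and ovules were taken whole over a range of stages, and in all 3 tissues fewer cells of a type and less RNA per cell cannot be told apart, and the age of each library's plants is not given in the sources used here.

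In flowering plants the ovule holds the female germline within maternal tissue. A spore mother cell goes through meiosis in the nucellus, and a surviving megaspore divides to form the embryo sac with its egg cell, central cell, synergids and antipodal cells, while the integuments grow around it and later become the seed coat. Genes whose transcripts are found mainly in ovules can belong to the embryo sac or to the surrounding maternal tissue, and whole-ovule RNA does not separate them.

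Genes are given by the identifiers of the reference annotations, where the prefix Bra stands for the A-genome (B. rapa), BniB for the B-genome (B. nigra) and Bol for the C-genome (B. oleracea). The files pair these identifiers with no gene names, functions or positions, and the study describes none of the 200 members among the genes it discusses, so no role is given for any of them. Near-identical copies of a gene in the 3 subgenomes can share reads, so a level of 1 copy is uncertain to that extent.

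The members made up a small part of the Ovule transcriptome. Their FPKM summed to 9158, 11459 and 10665 in Ovule replicates 1, 2 and 3, with a mean of 10427 ± 1169 (SD, n = 3). The sum was 277 ± 44.9 (SD, n = 3) in Anther and 165 ± 1.92 (SD, n = 3) in Leaf. In Ovule this was 0.963% ± 0.111 (SD, n = 3) of the FPKM of all genes, against 0.0259% ± 0.00474 in Anther and 0.0142% ± 0.000178 in Leaf.

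The depth behind these values was recovered from FPKM itself, in which 1 read is a fixed step for a given gene and library. All 100804 genes gave whole reads in the 9 libraries within a tolerance of 0.01 read, which a gene above 0 in only 1 library does in any case. The scale of the reads was set so that gene lengths fell on multiples of 3. Where a length still did not, its reads were multiplied by a common factor. The recovered reads and lengths rest on that assumption. Reads on genes ranged from 15113765 to 15516175 in Ovule, from 15077417 to 15526550 in Anther and from 8675189 to 10153663 in Leaf. Leaf thus had the fewest reads on genes, and a value of 0 says least there. The study reports a clearly lower mapping rate in Leaf than in Anther and Ovule, with clean read numbers of similar size. The part of unmapped Leaf reads in the Leaf levels of the members was not tested. A member had 118 or more reads over the 3 Ovule libraries, with a median of 1060. A floor of 3 reads over the 3 libraries of a tissue was used as the limit that a count of 0 allows, and it covers counting error only. A fold against a tissue without reads is given as a lower bound at this floor, and no ratio of means is given for a gene against a tissue with 1 to 3 reads. The ratio of the rule and the fitted changes of Anther against Leaf are given at any read number. At so few reads they depend on the 0.1 FPKM added.

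BniB041218, from the B-genome, ranked first with a ratio of 2956. Its level was 257, 527 and 831 FPKM in Ovule replicates 1, 2 and 3. It had no read in Leaf, and in Anther it was at 0.149, 0 and 0.0974 FPKM, from 5 reads in all. Every Ovule library was thus far above every other library, but the highest Ovule library was 3.23 times the lowest. The Ovule mean of 538 FPKM ± 287 (SD, n = 3) was at least 6734-fold higher than Leaf at the floor and 6552-fold higher than Anther.

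Bra001432, from the A-genome, ranked second with a ratio of 1736 and had the highest Ovule mean of the 200 members. Its level was 365, 617 and 960 FPKM in Ovule, 0.316, 0.255 and 0.248 FPKM in Anther and 0 in all Leaf libraries. Ovule replicate 3 was the highest and Ovule replicate 1 the lowest, as for BniB041218. The Ovule mean of 647 FPKM ± 299 (SD, n = 3) was 2372-fold higher than the Anther mean and at least 6367-fold higher than Leaf at the floor.

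The order of the Ovule libraries was the opposite in the genes of ranks 3 and 4. BniB014827 was at 226, 216 and 107 FPKM in Ovule replicates 1, 2 and 3, at 0.111, 0.0560 and 0.272 FPKM in Anther and at 0 in Leaf. Bol028435, the highest-ranked C-genome member, was at 119, 107 and 53.4 FPKM in Ovule, at 0.0316, 0.0639 and 0 FPKM in Anther, from 3 reads, and at 0 in Leaf. In both genes replicate 3 was the lowest Ovule library, at less than 50% of the highest, and their ratios were 743 and 707.

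BniB013615, of rank 5, was the only member with no read in Anther. It was at 136, 51.1 and 105 FPKM in Ovule, and 1 read in Leaf replicate 2 (0.147 FPKM) was all that the other 6 libraries held. That 1 read also brought it among the ranked genes, because a gene at 0 in all Leaf and Anther libraries was left out. Its Ovule mean of 97.5 FPKM ± 43.1 (SD, n = 3) was at least 1168-fold higher than Anther at the floor.

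Ranks 6 to 8 were A-genome genes with few reads outside Ovule. Bra013544 was at 67.5, 59.1 and 15.4 FPKM in Ovule replicates 1, 2 and 3, with no read in Leaf and 2 reads in Anther. Bra038635 was at 68.2, 107 and 175 FPKM in Ovule, with 2 reads in Leaf and 16 in Anther, and its Ovule mean was 386-fold higher than its Anther mean. Bra013544 was lowest in replicate 3, the library in which Bra038635 was highest. Bra023652 was at 48.0, 69.5 and 43.1 FPKM in Ovule, with 1 read in Leaf and 4 in Anther.

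Bra037895, of rank 9, stood out from the other 9 genes for its even level. It was at 204, 202 and 189 FPKM in Ovule, at 1.33, 0.287 and 0.928 FPKM in Anther and at 0 in Leaf, so that its 3 Ovule libraries differed 1.08-fold and its mean of 198.1 FPKM ± 8.34 (SD, n = 3) was 234-fold higher than the Anther mean. Bol032232, of rank 10, was at 7.65, 118 and 89.7 FPKM in Ovule, at 0.375, 0.0947 and 0.276 FPKM in Anther and at 0 in Leaf. Here Ovule replicate 1 was 15.4 times lower than replicate 2, though still above every Anther library.

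**Figure D1:**
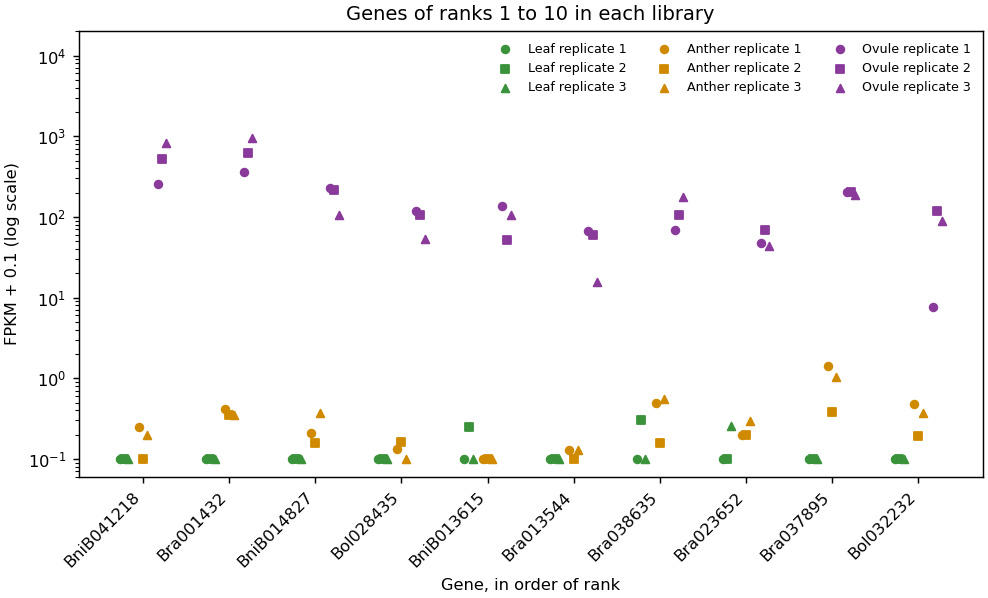
Level of the genes of ranks 1 to 10 in each of the 9 libraries, in FPKM with 0.1 added, on a log scale, with 1 point per library, colours for tissues and shapes for replicates. Points at 0.1 are libraries with no read. All Ovule points lie above all Leaf and Anther points of the same gene, and the 3 Ovule points are 1.08-fold apart for Bra037895 and 15.4-fold apart for Bol032232.

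Ratios fell off quickly below these genes. A ratio of at least 100 was reached by 33 members and one of at least 50 by 61, and the median was 29.9. The members just inside the limit were Bra034108 with a ratio of 12.74, Bra019776 with 12.68 and Bra039268 with 12.67, and the genes just outside it were BniB013846 with 12.60, Bol017402 with 12.52 and Bol008712 with 12.46. No gap in the ratio separated the members from the next genes. Bra039268, of rank 200, had means of 42.3 FPKM in Ovule, 3.25 FPKM in Anther and 2.82 FPKM in Leaf. BniB013846, the next gene, had means of 114 FPKM in Ovule, 0.916 FPKM in Anther and 8.94 FPKM in Leaf.

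**Figure D2:**
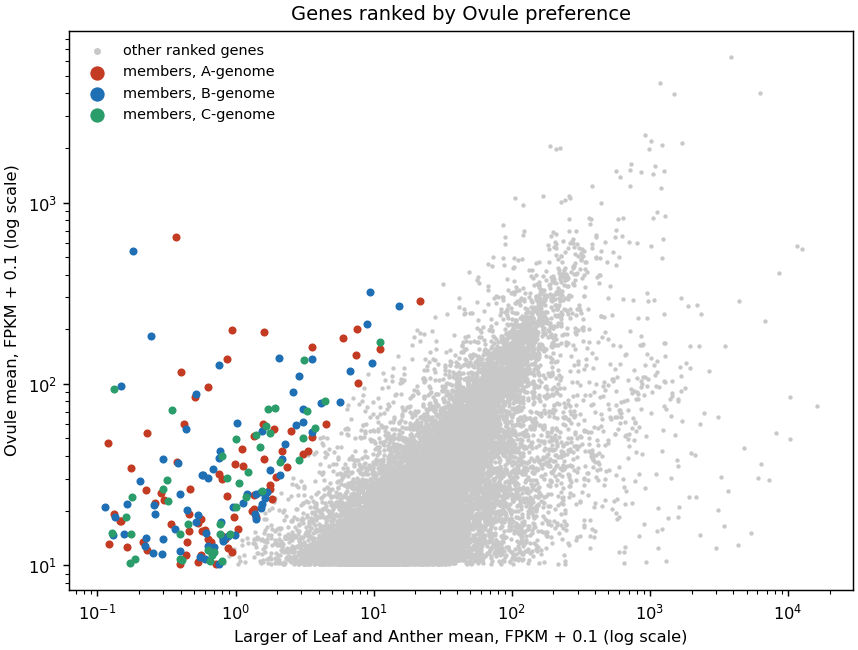
Ovule mean against the larger of the Leaf and Anther means for the 22428 ranked genes, each in FPKM with 0.1 added, on log scales. Coloured points are the 200 members by subgenome and grey points the other ranked genes, and the members form the upper left edge, with BniB041218 and Bra001432 at the top left.

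The Ovule means of the members ran from 10.01 to 647 FPKM, with a median of 25.5 FPKM, against 19.8 FPKM for the 22446 genes that reached 10 FPKM. A mean of at least 20 FPKM was reached by 124 members, one of at least 50 by 58 and one of at least 100 by 25. These 25 genes held 49.0% of the summed Ovule FPKM of the members, and BniB041218 and Bra001432 alone held 11.4%. Preference and abundance were not the same property. Of the 200 genes with the highest Ovule mean among genes that peaked in Ovule, which started at 318 FPKM, only 3 were members.

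Of the 5 members with the highest Ovule mean, 3 ranked well below the top and had higher levels outside Ovule. BniB017948 was at 360, 269 and 329 FPKM in Ovule, at 9.30, 10.4 and 8.37 FPKM in Anther and at 11.3, 8.83 and 5.20 FPKM in Leaf. Bra018969 was at 151, 402 and 305 FPKM in Ovule, at 11.1, 15.8 and 14.6 FPKM in Anther and at 21.3, 22.7 and 21.1 FPKM in Leaf, the highest Leaf mean of any member. BniB027168 was at 272, 218 and 311 FPKM in Ovule, at 9.53, 11.3 and 24.7 FPKM in Anther and at 12.2, 14.3 and 19.2 FPKM in Leaf. These genes were transcribed at a clear level in all 3 tissues and still stood 17.5-fold (BniB027168, rank 153), 33.8-fold (BniB017948, rank 92) and 13.1-fold (Bra018969, rank 194) higher in Ovule by the ratio of the rule.

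At the other end, the lowest Ovule means were those of BniB037061, Bra013000 and Bra031346. BniB037061 was at 6.57, 18.8 and 4.67 FPKM in Ovule, from 118 reads, with 4 reads in Anther and 5 in Leaf. Bra013000 was at 4.06, 17.2 and 8.76 FPKM, with 27 reads in Anther and none in Leaf. Bra031346 was at 3.81, 16.2 and 10.3 FPKM, with 5 reads in Anther and 2 in Leaf. In all 3 genes Ovule replicate 2 was the only or the highest library above the minimum of 10 FPKM, so that their membership rests on that library.

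Outside Ovule the members were found at low levels, with fewer reads in Leaf than in Anther. No read was found in Leaf for 79 members, 1 to 3 reads for 46 and more than 3 for 75, and the median Leaf mean was 0.0541 FPKM. In Anther only BniB013615 had no read, 22 members had 1 to 3 and 177 had more than 3, and the median Anther mean was 0.576 FPKM. A mean of at least 1 FPKM was reached by 36 members in Leaf and by 69 in Anther. The Anther mean was above the Leaf mean in 161 members (80.5%) and below it in 39. It was above in 72.1% of the genes that reached 10 FPKM in Ovule and in 68.7% of all genes. For the 79 members without a Leaf read this order was set in advance, since the rule required a read in Leaf or Anther. The shares over other genes were taken without that condition, so nothing is read from the difference. For 21 members there were at most 3 reads in Leaf and at most 3 in Anther, so that their order between these tissues could not be read at this depth.

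The rule kept the larger of the Leaf and Anther means low and did not ask which of them was the larger. It did require a read in Leaf or Anther, which fixed the direction for members without a Leaf read. Anther was compared with Leaf gene by gene. After 0.1 FPKM was added, log2 values of the 75038 genes that reached 0.5 FPKM in 3 or more libraries were fitted with limma. A difference was called where it was 2-fold or more and its p, adjusted after Benjamini and Hochberg over all 75038 genes, did not exceed 0.05. All but 2 of the 200 members were tested, the exceptions being BniB025391 and Bra039743, which reached 0.5 FPKM in only 2 libraries each. Called higher in Anther were 78 members, or 39.4% of those tested, where 38.4% of all genes tested were called that way. Called higher in Leaf were 8 members, or 4.04%, against 16.9% of all genes tested. Nothing is read from these shares, because the members were chosen to be low in both tissues and could pass the limit of 0.5 FPKM in 3 libraries through their Ovule libraries alone. None of the 21 members with at most 3 reads in each of the tissues was called. Of the 78, 33 were A-genome, 31 B-genome and 14 C-genome genes, and of the 8 they were 3, 3 and 2.

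These calls and the shares over all genes moved with the scaling of the libraries and with the amount added. After the libraries were rescaled by median-of-ratios factors, 71 members (35.9%) were called higher in Anther against 26.6% of all genes tested, and 16 members (8.08%) were called higher in Leaf against 23%. The median log2 fold change of Anther over Leaf was 1.01 for the members tested and 0.66 for all genes tested, and after the rescaling it was 0.89 and 0.16. Limma voom on the recovered reads called 57 members higher in Anther, with 37% of all genes tested, and 4 higher in Leaf, with 17% of all genes tested, and with 1 FPKM added in place of 0.1 the calls were 33 (16.7%, with 29.1% of all genes tested) and 3 (1.52%, with 13.7% of all genes tested). Of the 78 members, 46 had no read in Leaf, where the fitted value depends on the 0.1 FPKM added and is no bound. With tissues without reads set to their floor, the median log2 ratio was 1.07 over the 179 members with more than 3 reads in Leaf or Anther. Tissues with 1 to 3 reads kept their means there, so this median is no bound either.

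The members called higher in Anther had Anther means between 0.124 and 11.0 FPKM. The largest change was that of Bra020616, which was at 16.3, 6.35 and 10.5 FPKM in Anther, at 0 in the 3 Leaf libraries and at 104, 210 and 151 FPKM in Ovule. Its Anther mean was at least 64.3-fold higher than Leaf at the floor, with a limma log2 fold change of 6.70 (SE 0.34, adjusted p = 2.3e-07). BniB034585 was at 4.68, 2.72 and 4.84 FPKM in Anther, at 0 in Leaf and at 79.2, 76.6 and 80.2 FPKM in Ovule, with an Anther mean at least 38.5-fold higher than Leaf at the floor (limma log2 fold change 5.34, SE 0.23, adjusted p = 1.0e-07). Bra002132 was at 4.72, 2.52 and 3.26 FPKM in Anther, at 0 in Leaf and at 173, 166 and 141 FPKM in Ovule, with an Anther mean at least 31.4-fold higher than Leaf at the floor (limma log2 fold change 5.13, SE 0.23, adjusted p = 1.1e-07). In these 3 genes no Anther library overlapped with a Leaf library, and the order of the tissues was Ovule, Anther, Leaf. Both follow largely from the pick of these genes, as members and as the largest called changes.

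The members called higher in Leaf had Leaf means between 0.469 and 5.88 FPKM. BniB000686 was at 1.77, 1.26 and 1.34 FPKM in Leaf and at 0, 0.0426 and 0.207 FPKM in Anther, with a limma log2 fold change of -3.24 (SE 0.38, adjusted p = 4.5e-05). Bra005917 was at 1.15, 1.34 and 1.42 FPKM in Leaf and at 0.0637, 0.129 and 0.125 FPKM in Anther, with a limma log2 fold change of -2.78 (SE 0.48, adjusted p = 5.8e-04). BniB034946 was at 0.565, 0.529 and 0.898 FPKM in Leaf and at 0, 0 and 0.0369 FPKM in Anther, from 1 read, with a limma log2 fold change of -2.75 (SE 0.37, adjusted p = 1.1e-04). The groups did not overlap in these genes either, which were also picked for the size of their called change. Bra005917 lost its call in limma voom on the recovered reads (adjusted p = 0.107), and BniB034946 lost it with 1 FPKM added in place of 0.1, where its log2 fold change was -0.71.

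**Figure D3:**
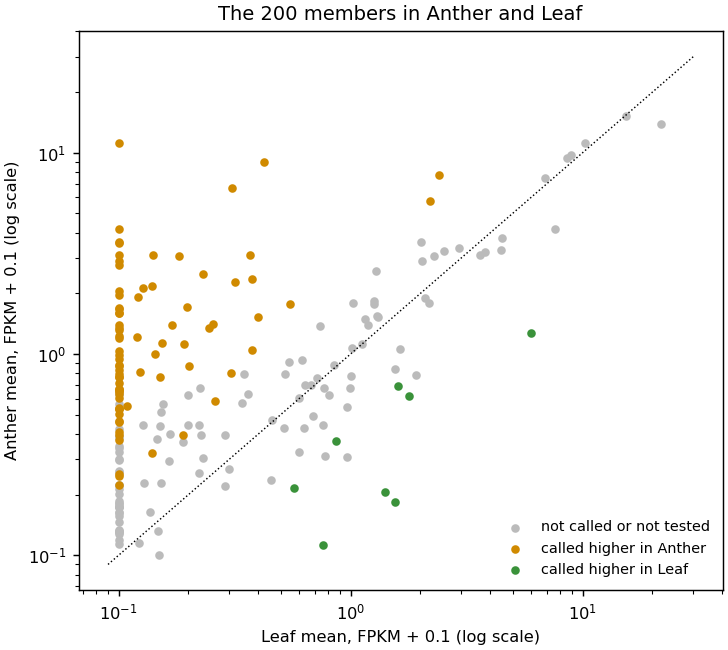
Anther mean against Leaf mean of the 200 members, each in FPKM with 0.1 added, on log scales, with the dotted line at equal values. The column of points at 0.1 on the Leaf axis holds the 79 members with no Leaf read, 46 of them among the 78 called higher in Anther, and the 8 called higher in Leaf lie under the line.

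The 3 Anther libraries were not alike in the members. Anther replicate 2 was the lowest of the 3 in 112 members, against 26 for replicate 1 and 44 for replicate 3, while it was the lowest in 22.7% of the genes that reached 10 FPKM in Ovule. No read was found for 45 members in replicate 2, for 19 in replicate 1 and for 12 in replicate 3. Over all genes the shares without a read were 16.1%, 9.74% and 12.3% in the same order, so replicate 2 was highest there too. The summed FPKM of the members was 311, 226 and 294 in Anther replicates 1, 2 and 3. Over the 37 meiotic genes that the study discusses, the sum was 136, 370 and 157 FPKM, so that replicate 2 was the highest for these and the lowest for the members. The 51 tapetum and pollen wall genes of the study summed to 14735, 8574 and 15718 FPKM and were, like the members, lowest in replicate 2. The part of these differences between the Anther libraries in the levels of the members was not tested. Without Anther replicate 2 the members called higher in Anther numbered 91 (46%) instead of 78, with 34.6% of all genes tested.

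The members varied more among the 3 Ovule libraries than other genes of that level. The highest Ovule library was at the median 1.80 times the lowest in the members (quartiles 1.32 and 2.55), against 1.21 times (quartiles 1.12 and 1.39) in the 22446 genes with a mean of at least 10 FPKM. A spread of at least 2-fold was found in 84 members (42.0%) against 6.56% of those genes, one of at least 3-fold in 35 (17.5%) against 1.76% and one of at least 5-fold in 17 (8.50%) against 0.704%. A spread under 1.5-fold was found in 75 members (37.5%) against 82.0%. Among genes with at least 1000 Ovule reads the median spread was 1.67 in 104 members and 1.17 in 10488 genes. A wide spread was not particular to the members. In the 18 genes that reached 10 FPKM in Ovule without a Leaf or Anther read, the median spread was 2.12. Of these, 66.7% spread at least 2-fold. The rule ranked by the Ovule mean, which 1 high library can raise, and the part of this in the spread was not tested. The spread is a description, for which no test over the members was made, and it was larger in ranks 1 to 100 (median 1.92, 48 genes at 2-fold or more) than in the other 100 members (median 1.59, 36 genes).

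**Figure D4:**
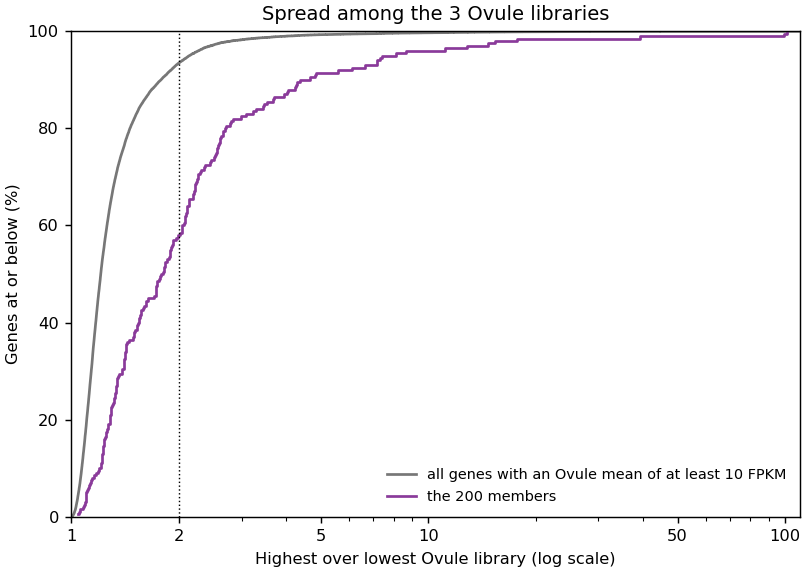
Cumulative share of genes, in percent, by the ratio of the highest to the lowest Ovule library on a log scale, for the 200 members and for the 22446 genes with an Ovule mean of at least 10 FPKM. The dotted line marks a 2-fold spread, which 42.0% of the members and 6.56% of all these genes reached or passed.

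The spread had more than 1 direction. Ovule replicate 2 was the highest library in 87 members, replicate 1 in 63 and replicate 3 in 50, and the lowest was replicate 3 in 89, replicate 1 in 83 and replicate 2 in 28. Among the 22446 genes replicate 2 was more often the lowest, in 40.7%, than the highest, in 26.04%. Replicate 3 was at least 2 times replicate 1 in 47 members (23.5%, against 2.22% of the 22446 genes), and the opposite was found in 21 members (10.5% against 2.24%). Replicate 2 was at least 2 times replicate 1 in 39 members (19.5% against 1.58%) and at least 2 times replicate 3 in 32 (16.0% against 2.03%). Replicate 2 was the low library in fewer members, at 50% or less of replicate 1 in 3 (1.5% against 0.628%) and of replicate 3 in 12 (6% against 1.77%). Each of the 6 shares was above that of the 22446 genes.

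The widest spreads all had the same low library. In each of the 17 members with a spread of at least 5-fold, Ovule replicate 1 was the lowest, and replicate 2 was the highest in 16 of them. Their FPKM summed to 119, 1155 and 575 in Ovule replicates 1, 2 and 3. Among all 158 genes of the 22446 with such a spread, replicate 1 was the lowest in 115 and replicate 3 the highest in 103. The 17 were 6 A-genome, 7 B-genome and 4 C-genome genes.

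Bra039743 had the largest spread, of 101.4-fold, at 0.296, 30.02 and 9.73 FPKM in Ovule replicates 1, 2 and 3, with Anther at 0.264, 0 and 0.0739 FPKM and no read in Leaf. BniB025391 followed with 99.1-fold, at 0.375, 37.2 and 19.8 FPKM in Ovule, with 0.477 FPKM in Anther replicate 1 and no read in the other Anther and Leaf libraries. It was the only 1 of the 200 members whose lowest Ovule library was not above every Leaf and Anther library. The rule chose members by their height in Ovule over Leaf and Anther, so this separation follows from the choice. Bra025300 spread 39.1-fold, at 0.921, 36.1 and 16.6 FPKM in Ovule, with an Anther mean of 0.466 FPKM and 1 read in Leaf. In these 3 genes Ovule replicate 1 was near the Anther level, and the preference for Ovule rests on replicates 2 and 3.

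Some of the 17 resembled each other, and these were picked after their values were seen. Bol032232, BniB024790, Bra039067 and Bra025300, from 3 subgenomes, had the same recovered coding length of 699 bases, which was found in 5 members and in 47 of the 22446 genes. BniB024790 was at 6.08, 108 and 54.9 FPKM and Bra039067 at 5.80, 85.5 and 19.6 FPKM in Ovule replicates 1, 2 and 3. The fifth gene of this length, Bol012288 of rank 31, was at 17.8, 19.4 and 17.6 FPKM and did not share the low replicate 1. Bol013028 and BniB015743 both had 1350 bases and were at 12.9, 94.9 and 52.2 FPKM and at 15.8, 97.1 and 52.6 FPKM, in that order. Whether such genes are copies of each other was not tested.

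**Figure D5:**
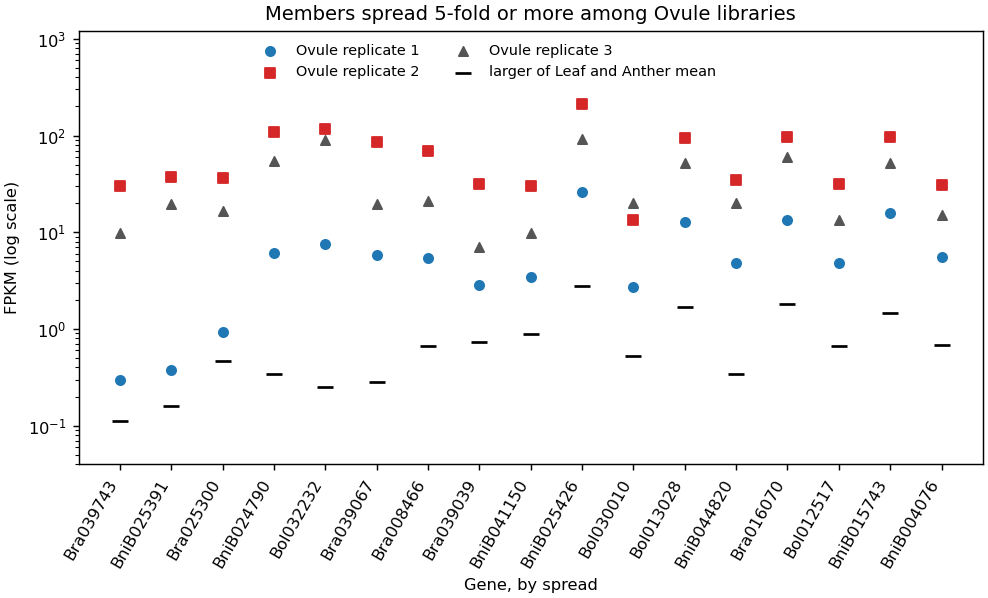
The 17 members with a spread of at least 5-fold among the Ovule libraries, with 1 point per Ovule library in FPKM on a log scale and a bar for the larger of the Leaf and Anther means. Replicate 1 (circles) is the lowest Ovule point in all 17 genes and replicate 2 (squares) the highest in 16, the exception being Bol030010.

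Other members were level across the Ovule libraries. BniB000686 spread 1.04-fold, at 21.7, 21.1 and 21.99 FPKM, BniB034585 1.05-fold, at 79.2, 76.6 and 80.2 FPKM, and BniB041917 1.05-fold, at 20.1, 20.7 and 21.1 FPKM. BniB041917 was at 1.25, 1.63 and 1.40 FPKM in Anther and had 3 reads in Leaf. The 3 genes ranked 184, 141 and 187, and 2 of them were also among the members with the largest changes between Anther and Leaf.

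Other measures differed between the Ovule libraries as well. The 51 tapetum and pollen wall genes that the study discusses summed to 40.8, 67.0 and 145 FPKM in Ovule replicates 1, 2 and 3, against 8574 to 15718 FPKM in Anther, so that these genes of the male organ were highest in Ovule replicate 3. The meiotic genes summed to 88.9, 92.6 and 85.9 FPKM in Ovule. The 23 female gamete genes of the study summed to 260, 228 and 244 FPKM in Ovule. The tapetum and pollen wall sum was lowest in replicate 1, the low library of the 17 widest members, and highest in replicate 3, and the meiotic and female gamete sums were lowest in replicates 3 and 2. The part of anther transcripts in the spread of the members was not tested.

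The 3 subgenomes contributed unequally. The A-genome gave 79 members (39.5%), the B-genome 76 (38.0%) and the C-genome 45 (22.5%), where the genes that reached 10 FPKM in Ovule were 37.5% A-genome, 32.1% B-genome and 30.4% C-genome. All genes were 35.0% A-genome, 36.5% B-genome and 28.5% C-genome. The C-genome count of 45 was the lowest over the forms of the rule tried, which gave up to 56. The summed Ovule FPKM of the members was 4401 ± 601 (SD, n = 3) for the A-genome, 4292 ± 309 for the B-genome and 1735 ± 328 for the C-genome. The A- and B-genome sums differed by less than their spread over the libraries, and the C-genome sum was below both in every Ovule library. Per gene the subgenomes were alike, with median Ovule means of 25.9, 24.96 and 26.1 FPKM and median ratios of 29.5, 33.7 and 29.8. No test of the shares was made, since the members were chosen by their values.

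The members were shorter than other genes of that level. The coding length recovered from the FPKM steps had a median of 772.5 bases in the members, 897 in the genes with at least 10 FPKM in Ovule and 1014 in all genes. By identifier, 2 pairs of members had consecutive numbers, BniB048328 with BniB048329 and Bol030010 with Bol030011. Such pairs were not counted among other genes, so 2 is called neither few nor many. BniB048328 was at 15.5, 14.2 and 8.15 FPKM in Ovule and BniB048329 at 117, 140 and 96.7 FPKM. Bol030010 was at 2.71, 13.4 and 20.1 FPKM in Ovule and Bol030011 at 26.5, 129 and 86.2 FPKM. The genes of a pair thus differed several-fold in level, and Bol030010 and Bol030011 shared the low Ovule replicate 1.

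The genes that the study discusses for meiosis, pollen and the embryo sac were not among the members. Of its 111 genes in 6 lists, none ranked within the top 200. None of the 37 meiotic genes and only 2 of the 51 tapetum and pollen wall genes reached 10 FPKM in Ovule. The absence of most of the 111 was thus set by that minimum and says nothing of their preference. The study also took the tapetum and pollen wall genes from those higher in Anther than in Ovule. Of the 23 female gamete genes, which include genes of auxin transport and of the cell cycle, 9 reached 10 FPKM in Ovule and were ranked, between 938 and 2344, with ratios of 2.26 to 3.61. All 23 were called higher in Ovule than in Leaf, where 36.8% of all genes tested were, and higher in Ovule than in Anther, where 14.3% were. The study chose this list on these samples, so its direction is not independent evidence. Its summed level was 244 FPKM ± 15.9 (SD, n = 3) in Ovule, 80.6 ± 6.58 in Anther and 24.6 ± 2.69 in Leaf.

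The rule left out 18 genes that reached 10 FPKM in Ovule and had no read in any Leaf or Anther library. Their Ovule means ran from 11.6 to 51.1 FPKM, with a median of 19.5 FPKM and with Bra014912 the highest. They were 8 A-genome, 5 B-genome and 5 C-genome genes with a median recovered length of 501 bases. A spread of at least 2-fold among the Ovule libraries was found in 12 of them. With these genes let in, 182 of the 200 members stayed within the top 200.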

How the data were processed

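FPKM values of 100804 genes in 9 libraries were used as deposited. FPKM had been calculated by the authors from per-gene counts (HTSeq 0.6.0) of filtered reads, which HISAT2 2.1.0 had placed on the B. rapa, B. nigra and B. oleracea reference genomes, and the submitters' processing notes also name StringTie 1.3.2 without a role. No scaling between libraries is stated, and strand is not given in the sources used here, so overlapping genes cannot be told apart. Groups were taken from the sample titles.

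The 200 members and all lists were chosen with earlier results of these data known. Named were ranks 1 to 10 and the 3 genes on each side of the limit, the 5 highest and 3 lowest Ovule means, the 3 largest and 3 smallest spreads among Ovule libraries, the 3 members with the largest called change each way between Anther and Leaf, the highest-ranked member of each subgenome and members with consecutive numbers. BniB024790, Bra039067, Bol012288, Bol013028, BniB015743 and Bra014912 were named after their values were seen.

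Reads and coding lengths were recovered from the FPKM steps with Python 3.11.15, pandas 2.3.3 and numpy 2.4.6, and figures were drawn with matplotlib 3.10.9. For Anther against Leaf, log2(FPKM + 0.1) was fitted by limma (version 3.58.1, R 4.3.3) in a single model of all 9 libraries, without a replicate block and with trended eBayes moderation. Fold changes on this scale understate the change of low genes. The study calls the libraries biological replicates without saying that they came from separate plants, so p-values measure the spread between these libraries. The spread was estimated over all 9 libraries, so the Ovule libraries also enter the SE and adjusted p of Anther against Leaf. The recovery and the limma step were tested on simulated data.

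Alternatives were other pseudocounts (0.01 and 1), medians, another minimum Ovule mean (5 or 20 FPKM), the lowest Ovule against the highest other library, genes without reads elsewhere let in, median-of-ratios rescaling, no filter or a filter of 1 FPKM, Anther and Leaf libraries only, a replicate block, limma voom on recovered reads, and each library left out in turn. For the calls between Anther and Leaf, no Ovule library was left out in turn.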

Additional observations from a re-analysis of the deposited data

How the results depend on the processing

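The rule kept 169 to 196 of the 200 members under other pseudocounts, medians, the lowest Ovule against the highest other library, rescaling or the genes without reads elsewhere let in, 139 with a minimum Ovule mean of 5 FPKM and 124 with one of 20 FPKM, the number of members at or above it. Leaving out 1 library kept 178 (without Ovule replicate 1) to 199 (without Leaf replicate 1), and ranks 1 to 10 stayed members except BniB013615 without Leaf replicate 2, which held its only read outside Ovule. C-genome members numbered 45 to 56 over all these forms, with the lowest number under the rule itself and the highest with a minimum Ovule mean of 5 FPKM. The share of the members in summed Ovule FPKM was 0.910% to 1.02% and the median spread 1.27 to 1.49 with 1 Ovule library left out, against 1.12 to 1.13 in the genes of that level.

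Anther was compared with Leaf under other settings too. With 1 FPKM added, calls higher in Anther fell to 33 (16.7%, with 29.1% of all genes tested) from 78 (39.4%, with 38.4%). They numbered 74 to 91 with 1 Anther or Leaf library left out (37.4% to 46%, with 34.2% to 38.8% of all genes tested). Under the other settings they numbered 57 to 98 (28.8% to 49.5%, with 26.6% to 38.7% of all genes tested). The number higher in Leaf was 8 (4.04%), and became 3 (1.52%) with 1 FPKM added, 16 (8.08%) after rescaling and 4 (2.02%) in limma voom, with 13.7% to 23% of all genes tested. It was 5 (without Leaf replicate 1) to 8 with 1 Anther or Leaf library left out. The shares were then 2.53% to 4.04%, with 14.4% to 17.7% of all genes tested. The 6 named genes lost their call in 2 of 84 alternatives, and none turned. A replicate block gave 80 calls higher in Anther (40.4%, with 38.4% of all genes tested) and 9 higher in Leaf (4.55%, with 16.9%). Leaf and Anther libraries of the same number did not deviate together (r from -0.00498 to -0.00145). Anther and Ovule libraries of the same number gave r of -0.0947, -0.0200 and 0.161 for replicates 1, 2 and 3. For Anther and Ovule libraries of different numbers r ran from -0.122 to 0.150. These values cannot show whether libraries of the same number shared plants or a batch. For low members, 1 FPKM added exceeds most values in Leaf and Anther, and 79 members without Leaf reads limit any fold to a bound.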
